A study of Trichoderma reesei QM6a with 6 samples.

Results

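Described here are 24 of the 9113 genes in the deposited table of Trichoderma reesei that were near silent in the strain QM6a and on in its ace1 deletion, Δace1. They were chosen on the deposited normalized counts, which are read counts divided by a factor for each library. A gene was taken when its mean was at least 600 in Δace1 and below 30 in QM6a, and when each of the 3 Δace1 values lay above every QM6a value. These values chose the genes, so the difference between the strains is given below as a description, without a test. The tested fungus carried a deletion of ace1 in the QM6a background, and QM6a with the gene intact was set against it. Both strains were grown for 24 h in shake flasks at 28 °C and 250 rpm on 1% D-glucose, after which the mycelium was washed and kept on 1% D-mannitol for 3 h. RNA was taken from 3 samples of each strain, poly(A) enriched and sequenced as stranded libraries. The labels do not say that the replicates were separate cultures or how many deletion clones were used.

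This fungus is known for secreting large amounts of cellulases and xylanases, and Ace1, which binds DNA through zinc fingers, is known to repress genes of these enzymes. D-mannitol is a sugar alcohol that is generally regarded as neither an inducer nor a strong repressor of them. Loss of a repressor can change a gene directly, through a site at that gene, or indirectly through other regulators, and transcript levels do not tell these apart. None of the 24 genes has a symbol in the reference table used here (RefSeq, assembly v2.0) and no product is given for any of them. They are therefore described by locus tag, level, length, spread and position, and no role is assigned to them. No sequence is printed for them.

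Estimated counts summed to between 5482552 and 6424125 per Δace1 library and between 6072118 and 6938203 per QM6a library. The deleted gene ace1 had 6, 7 and 14 reads in the Δace1 libraries and 8432, 7765 and 8001 reads in the QM6a libraries, so each library carried the ace1 level of its label. Of 7769 genes tested with edgeR's quasi-likelihood test, 80.8% were called at a Benjamini-Hochberg adjusted p below 0.05, with 41.2% higher in Δace1 and 39.5% lower. That split depended on scaling. Calls that were higher made up 51.0% of all calls with TMM scaling, 71.8% with library totals and 80.5% on log2(TPM + 1). The median log2 change of all genes was 0.03 with TMM, 0.19 with upper-quartile scaling, 0.76 on log2(TPM + 1) and 0.53 when library totals were used, and the changes printed here are on the TMM scale. Among the Δace1 libraries, replicate 3 stood furthest from the others. Its chi-square over its degrees of freedom, which is near 1 for sampling noise alone, was 28.5 against replicate 1 and 21.3 against replicate 2, where replicates 1 and 2 gave 4.19. Replicate pairs of QM6a gave 2.96 to 12.5.

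Near silence in QM6a was common, and a level of 600 without ace1 was rare among the silent genes. In QM6a 2429 genes had a mean below 30. In Δace1 1803 of them were also below 30, 416 lay between 30 and 100, 186 between 100 and 600, and 24 at 600 or more. The 24 genes were thus 0.988% of the genes near silent in QM6a and 1.25% of the 1922 genes with a mean of at least 600 in Δace1. The limit of 600 corresponded to 115 to 118 CPM (the count scaled to the library total) in Δace1, and the limit of 30 to 3.97 to 4.14 CPM in QM6a. The opposite rule, with the strains exchanged, found 4 genes, one of which was ace1 itself.

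**Figure D1:**
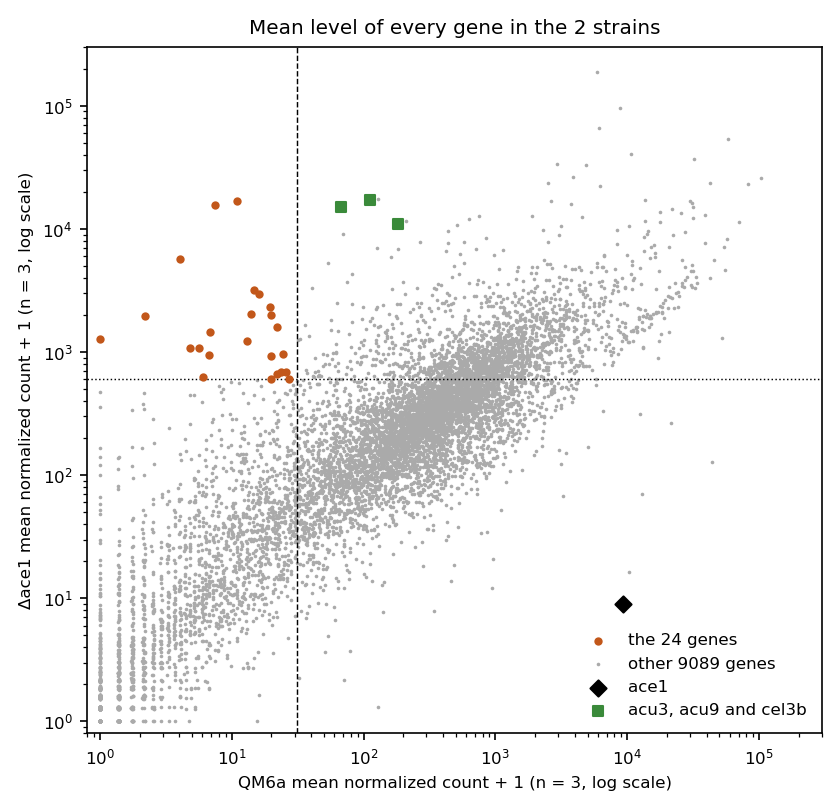
Mean deposited normalized count plus 1 of every gene in Δace1 (vertical axis) and in QM6a (horizontal axis), both on log scales, n = 3 libraries per strain. The 24 genes lie left of the dashed line (30 in QM6a) and above the dotted line (600 in Δace1), ace1 lies at lower right, and acu3, acu9 and cel3b lie above the dotted line but right of the dashed one.

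The 24 genes together took 1.25% to 1.39% of a Δace1 library (as estimated counts) and 0.00417% to 0.00437% of a QM6a library. Each of the 3 Δace1 libraries had at least 476 reads of each gene, and no QM6a library had more than 31. In bulk RNA, a transcript made in few hyphae cannot be told apart from one made weakly in all of them. The median over the 24 genes was 1249 normalized counts in Δace1 and 13.4 in QM6a. The smallest distance between the strains was that of TRIREDRAFT_123553, whose lowest Δace1 library was 13.8-fold above its highest QM6a library. All 24 passed the filter on low counts, and all 24 were called higher in edgeR's fit, against 80.8% of all genes tested called in either direction and 41.2% called higher. The rule itself fixes that count of the 24. Their median log2 change was 7.14, beside 0.03 over all genes tested, and the lowest single one was 4.54. Every Δace1 value above every QM6a value, the non-overlap that the rule asked for, was found in 39.2% of the 8861 genes with a count.

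**Figure D2:**
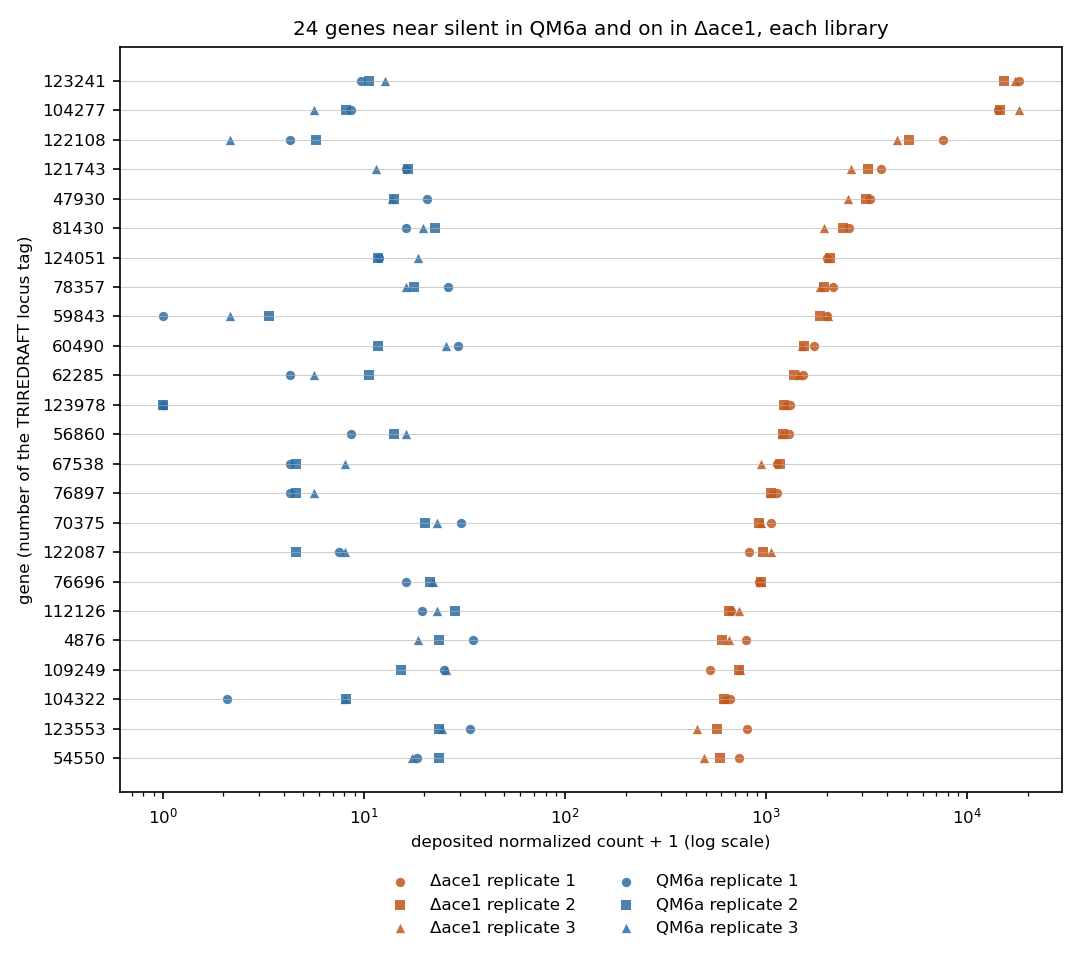
Deposited normalized count plus 1 of the 24 genes in each library on a log scale, with genes ordered by their Δace1 mean. Δace1 libraries (orange) lie between 451 and 18137 normalized counts and QM6a libraries (blue) between 0 and 33.8, with no overlap in any gene.

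The genes are taken here in the order of their Δace1 read counts, which also depend on gene length. TRIREDRAFT_123241 had 18071, 15275 and 17299 normalized counts in Δace1 and 8.72, 9.56 and 11.7 in QM6a. Its mean was 16881 ± 1444 in Δace1 and 9.99 ± 1.52 in QM6a (SD, n = 3 each), and its log2 change was 10.73 ± 0.14 (SE). TRIREDRAFT_104277 had 14203, 14541 and 18137 normalized counts in Δace1 and 7.63, 7.17 and 4.67 in QM6a. The highest value of this gene came from Δace1 replicate 3, whereas for TRIREDRAFT_123241 it came from replicate 1. Its mean was 15627 ± 2181 in Δace1 and 6.49 ± 1.59 in QM6a (SD, n = 3 each), and its log2 change was 11.22 ± 0.17 (SE). This pair of genes made up 45.6% to 52.9% of the estimated counts of all 24 in the Δace1 libraries.

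TRIREDRAFT_122108, with the shortest coding length of the 24, had 7588, 5139 and 4452 normalized counts in Δace1 and 3.27, 4.78 and 1.17 in QM6a. The Δace1 libraries of this gene were wide apart, and even the lowest was 932-fold above the highest QM6a library, which held 4 reads. Its log2 change was 10.83 ± 0.48 (SE), a wider error than for the pair above.

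TRIREDRAFT_121743 had 3738, 3224 and 2637 normalized counts in Δace1 and 15.3, 15.5 and 10.5 in QM6a. TRIREDRAFT_47930 had 3286, 3121 and 2548 in Δace1 and 19.6, 13.1 and 12.8 in QM6a. Both genes were lowest in Δace1 replicate 3, and neither strain's values overlapped the other's. TRIREDRAFT_81430, with the longest coding length of the 24, had 2586, 2421 and 1929 normalized counts in Δace1 and 15.3, 21.5 and 18.7 in QM6a. TRIREDRAFT_124051 had 2002, 2088 and 2022 in Δace1 and 10.9, 10.7 and 17.5 in QM6a. Those Δace1 values differed little between libraries, unlike those of TRIREDRAFT_121743 and TRIREDRAFT_47930.

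TRIREDRAFT_78357 had 2142, 1947 and 1854 normalized counts in Δace1 and 25.1, 16.7 and 15.2 in QM6a. TRIREDRAFT_60490 had 1724, 1551 and 1512 in Δace1 and 28.3, 10.7 and 24.5 in QM6a. Among the QM6a libraries TRIREDRAFT_60490 had the widest range of the 24 genes, and replicate 2 was its low one. The next widest were TRIREDRAFT_4876 with 33.8, 22.7 and 17.5 normalized counts in QM6a and TRIREDRAFT_70375 with 29.4, 19.1 and 22.2, and replicate 1 was the high library of both. In Δace1 TRIREDRAFT_4876 had 795, 602 and 649.6 and TRIREDRAFT_70375 had 1056, 919 and 941.

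Near the floor of the assay the size of the difference could not be measured closely. A floor of 3 reads corresponded to 3.27 to 3.58 normalized counts in the QM6a libraries, and 8 of the 24 genes had at least one QM6a library at or under it. TRIREDRAFT_123978 had no read in any QM6a library and 1319, 1229 and 1242 normalized counts in Δace1. Against a floor of 3 reads per library it was at least 366-fold higher in Δace1. TRIREDRAFT_59843 had 2002, 1850 and 2027 normalized counts in Δace1, while its QM6a libraries held 0, 2 and 1 reads. The ratio of its means was 1653, with a 95% counting interval of 583 to 8269. TRIREDRAFT_76897 had 1128, 1052 and 1061 normalized counts in Δace1 and 3.27, 3.58 and 4.67 in QM6a, a ratio of 281. These intervals and floors cover counting error only.

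The low QM6a level of these genes, as a share of their Δace1 level, can be set beside the residual reads of the deleted gene. The mean of ace1 in Δace1 was 0.0868% of its mean in QM6a. The QM6a mean was at or below that share of the Δace1 mean in 5 of the 24 genes, namely TRIREDRAFT_123241 at 0.0591%, TRIREDRAFT_104277 at 0.0415%, TRIREDRAFT_122108 at 0.0536%, TRIREDRAFT_59843 at 0.0605% and TRIREDRAFT_123978 at 0. Such a share also depends on the Δace1 level, which the rule used. In normalized counts the order differed. The mean of ace1 was 8.05 in Δace1, that of TRIREDRAFT_123241 was 9.99 in QM6a, and that of TRIREDRAFT_76897, not among the 5, was 3.84 in QM6a. For 16 of the 24 the QM6a mean was below 1% of the Δace1 mean, the median was 0.720%, and the highest was 4.34%, for TRIREDRAFT_123553. In 22 of the 24 genes every QM6a library held at least one read. Where these few reads came from was not tested.

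Per length, as TPM (a transcript's share of all transcripts, scaled to a fixed sum in each library), the order at the top changed. TRIREDRAFT_104277, with a coding length of 528 bases, came first with 5463, 5561 and 6598 TPM in Δace1 and 1.603, 1.58 and 1.04 TPM in QM6a. It ranked 14 of 9115 transcripts by mean TPM in Δace1. TRIREDRAFT_122108, with 342 bases, followed with 4872, 3281 and 2703 TPM in Δace1 and 1.15, 1.76 and 0.433 TPM in QM6a, at rank 26. TRIREDRAFT_123241, with 1011 bases, had 3405, 2862 and 3083 TPM in Δace1 and 0.898, 1.03 and 1.27 TPM in QM6a, at rank 35. The mean TPM of TRIREDRAFT_122108 and TRIREDRAFT_123241 differed by less than the SD of TRIREDRAFT_122108 among its Δace1 libraries. These 3 genes held 72.2% to 75.6% of the summed TPM of the 24 in Δace1. For scale on the same measure, the glyoxylate bypass gene acu3 (isocitrate lyase) averaged 1671 ± 104 TPM in Δace1 and 4.23 ± 0.416 TPM in QM6a, at rank 76 in Δace1. The gene acu9 (malate synthase) averaged 1920.5 ± 160 TPM in Δace1 and 7.16 ± 1.07 TPM in QM6a, at rank 68 (SD, n = 3 each). Neither met the rule, because their QM6a means were above 30 normalized counts.

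The other 21 genes ranked lower. In Δace1 3 of the 24 were among the first 100 transcripts by TPM and 11 among the first 1000, and the lowest, TRIREDRAFT_104322, ranked 2158. The median rank of the 24 was 1155 in Δace1 and 7189 in QM6a. Their summed TPM was 16219 to 18672 in the Δace1 libraries and 30.8 to 34.3 in the QM6a libraries. Their coding lengths ran from 342 to 3072 bases, with a median of 1173 bases beside 1230 over all genes and 1478 over the 1898 other genes with a Δace1 mean of at least 600. All 6 estimated counts were whole numbers for each of the 24, as for 98.9% of all genes, that is, no count of the 24 was a fraction shared out between transcripts.

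The genes differed among themselves in how steady they were across the Δace1 libraries. For genes near the limit the rule can set part of this, since a high value in a single Δace1 library can lift a mean to 600. The other genes compared here had to reach the same Δace1 mean. The coefficient of variation among the 3 Δace1 libraries had a median of 8.07% over the 24 and of 5.01% over the 1898 other genes with a Δace1 mean of at least 600. For 11 of the 24 it was above 10.1%, the level exceeded by 1 in 10 of those other genes. The highest and lowest Δace1 libraries were at least 1.2-fold apart in 11 of the 24, against 12.0% of the other genes. Without Δace1 replicate 3, which stood apart, the medians were 6.16% over the 24 and 3.84% over the others, and without replicate 1 they were 5.90% and 3.52%. On TPM they were 9.74% and 5.71%. The number of the 24 above the same percentile of the others was 8 without replicate 3, 8 without replicate 1 and 9 on TPM.

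This wider spread was seen at both ends of the range of levels and less in its middle. Among genes with a Δace1 mean of 600 to 1000 the median coefficient of variation was 12.5% for 9 of the 24 and 5.12% for 905 others. From 1000 to 3000 it was 5.13% for 11 of the 24 and 4.87% for 793 others. At 3000 or more it was 15.6% for 4 of the 24 and 5.32% for 200 others. With so few genes per range these medians are a description only.

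**Figure D3:**
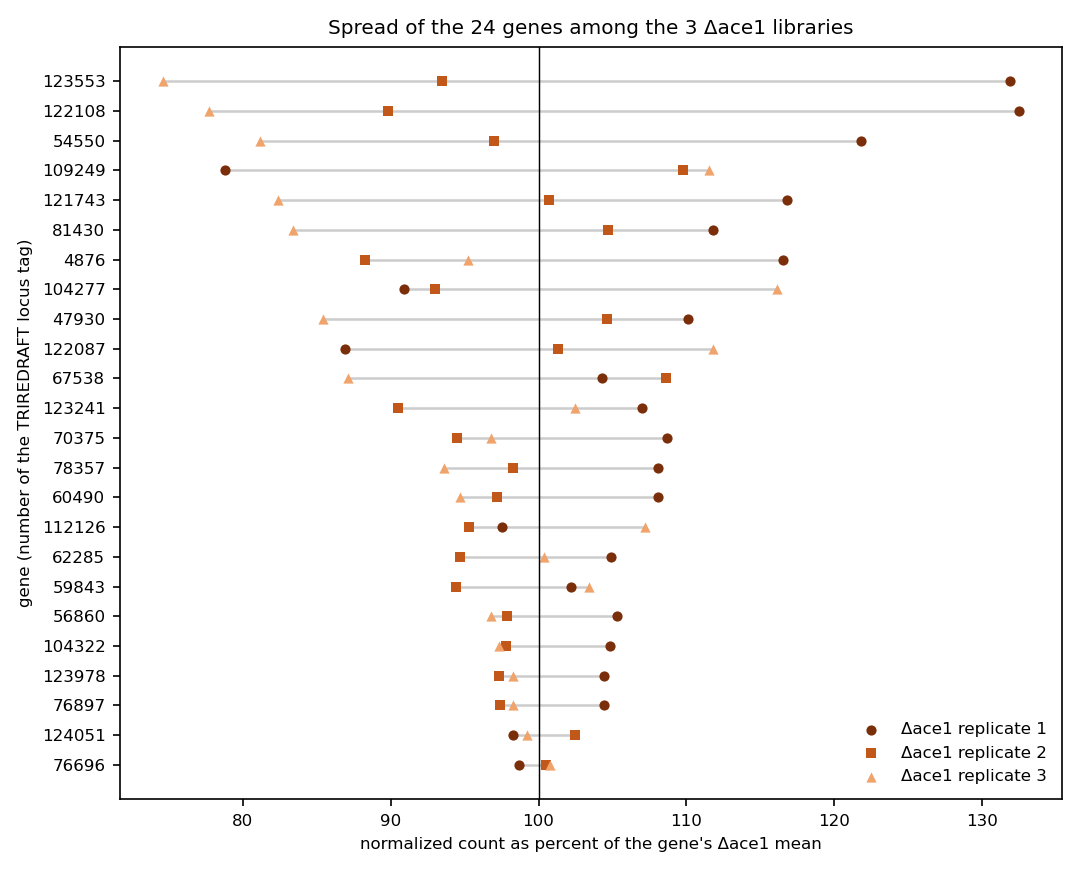
Normalized count of each of the 24 genes in the 3 Δace1 libraries as a percent of the gene's own Δace1 mean, with the most variable genes at the top. TRIREDRAFT_123553 spans 74.6% to 132%, with replicate 1 highest, TRIREDRAFT_109249 runs the other way with replicate 1 at 78.8%, and TRIREDRAFT_76696 spans 98.7% to 101%.

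Replicate 1 was the highest Δace1 library for 16 of the 24 genes, replicate 3 for 6 and replicate 2 for 2. Over the other 1898 genes of like level, replicate 1 was the highest for 39.1%, replicate 3 for 35.5% and replicate 2 for 25.4%. In 10 of the 24 replicate 1 was highest and replicate 3 lowest, an arrangement found in 25.2% of the other genes. The 3 most variable genes all had it. TRIREDRAFT_123553 had 799, 566 and 451 normalized counts in Δace1 and 32.7, 22.7 and 23.4 in QM6a, a Δace1 coefficient of variation of 29.2%. The coefficient of TRIREDRAFT_122108 was 28.8% and that of TRIREDRAFT_54550 was 20.4%. TRIREDRAFT_123553 and TRIREDRAFT_54550 reached a mean of 600 only through their high replicate 1, so their spread and the place of that replicate follow in part from how they were chosen.

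A few genes went the other way or hardly varied. TRIREDRAFT_109249, singled out after its values were seen, had 525, 732 and 744 normalized counts in Δace1 and 24.0, 14.3 and 24.5 in QM6a, so that Δace1 replicate 1 was its low library. TRIREDRAFT_122087, chosen in the same way, had 824, 961 and 1060 in Δace1 and 6.54, 3.58 and 7.01 in QM6a. The steadiest of the 24 was TRIREDRAFT_76696, with 922, 938 and 941 in Δace1 and 15.3, 20.3 and 21.0 in QM6a, a Δace1 coefficient of variation of 1.10%. It was followed by TRIREDRAFT_124051 at 2.21% and TRIREDRAFT_76897 at 3.83%. The library that was high differed from gene to gene.

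The other genes are given in the order of their Δace1 read counts, down to TRIREDRAFT_54550, which had the lowest Δace1 mean of the 24. TRIREDRAFT_62285 had 1529, 1380 and 1463 normalized counts in Δace1 and 3.27, 9.56 and 4.67 in QM6a. TRIREDRAFT_56860 had 1300.03, 1208 and 1195 in Δace1 and 7.63, 13.1 and 15.2 in QM6a. TRIREDRAFT_67538 had 1131, 1178 and 945 in Δace1 and 3.27, 3.58 and 7.01 in QM6a. Of these genes TRIREDRAFT_67538 had replicate 3 as its low Δace1 library, by a wider gap than the others showed. TRIREDRAFT_112126 had 667, 653 and 734 normalized counts in Δace1 and 18.5, 27.5 and 22.2 in QM6a. TRIREDRAFT_104322 had 661, 617 and 614 in Δace1 and 1.09, 7.17 and 7.01 in QM6a. TRIREDRAFT_54550 had 735, 586 and 490.3 in Δace1 and 17.4, 22.7 and 16.4 in QM6a. Among these genes the strains were apart in every library, and QM6a replicate 1 was the lowest QM6a library of each except TRIREDRAFT_54550.

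At the limits of the rule the genes inside and outside were much alike. Just inside the Δace1 limit were TRIREDRAFT_54550 with a mean of 604 normalized counts in Δace1 and 18.8 in QM6a, TRIREDRAFT_123553 with 605 and 26.2, and TRIREDRAFT_104322 with 631 and 5.09. Just outside it were TRIREDRAFT_123274 with 590.02 in Δace1 and 14.7 in QM6a, TRIREDRAFT_65215 with 570.2 and 8.86, and TRIREDRAFT_1999 with 561 and 10.4. Just inside the QM6a limit were TRIREDRAFT_123553, TRIREDRAFT_4876 with a mean of 682 in Δace1 and 24.7 in QM6a, and TRIREDRAFT_70375 with 972 and 23.6. Just outside it were TRIREDRAFT_107947 with 1256 in Δace1 and 30.7 in QM6a, TRIREDRAFT_81778 with 1272 and 31.8, and TRIREDRAFT_64397 with 1646 and 35.0. TRIREDRAFT_123553 and TRIREDRAFT_54550 met the rule only with Δace1 replicate 1, and without that library 22 genes met it.

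The 24 genes were scattered over the gene order of the reference table, and 13 of them had no other of the 24 in the same unbroken stretch of it. No member lay within 5 places of another, and the closest pair was TRIREDRAFT_59843 and TRIREDRAFT_60490, 9 places apart. Of the 95 other genes within 2 places of one of the 24, 80 were tested and 41 were called higher in Δace1, which is 51.2% beside 41.2% over all genes tested. The count at least 4-fold higher was 14 of 80, which is 17.5% beside 11.6% over all genes tested. Another 28 of the 80 were called lower, and the median log2 change of the 80 was 0.34. At 3 to 5 places 52 of 114 tested genes were called higher, which is 45.6%, and 23 were at least 4-fold higher, which is 20.2%. Scaling moved these shares. With library totals 63.7% of the tested neighbours within 2 places were called higher beside 60.6% of all genes, with 18 called lower, and on log2(TPM + 1) it was 70.7% beside 69.5%, with 11 called lower.

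Neighbours called at least 4-fold higher lay within 2 places of 11 of the 24, and the neighbours named here were chosen after their values were seen. Immediately after TRIREDRAFT_124051 lay TRIREDRAFT_70098, another gene near silent in QM6a, with 384, 409 and 383 normalized counts in Δace1 and 5.45, 3.58 and 5.84 in QM6a. Its log2 change was 6.28 ± 0.18 (SE; edgeR, Benjamini-Hochberg adjusted p = 5.78e-15). TRIREDRAFT_45445, next to TRIREDRAFT_104322, was already abundant in QM6a and had a mean of 16917 in Δace1 and 2656 in QM6a, a log2 change of 2.69 (edgeR, Benjamini-Hochberg adjusted p = 1.88e-14). TRIREDRAFT_68000, next to TRIREDRAFT_123553, had 725.5, 525 and 453 normalized counts in Δace1 and 72.0, 56.1 and 53.7 in QM6a. Replicate 1 was its high library and replicate 3 its low one in both strains, and in Δace1 this was also the arrangement of TRIREDRAFT_123553.

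TRIREDRAFT_70375 had a run of changed genes beside it. All 5 genes on one side of it were called higher in Δace1, with log2 changes of 3.76 for TRIREDRAFT_70351, 1.08 for TRIREDRAFT_70349, 2.66 for TRIREDRAFT_112247, 6.02 for TRIREDRAFT_70334 and 2.80 for TRIREDRAFT_70383 (edgeR, Benjamini-Hochberg adjusted p of 4.4e-15 to 2.79e-06). TRIREDRAFT_70334 averaged 474 normalized counts in Δace1 and 7.22 in QM6a. On the other side TRIREDRAFT_82334, at the second place, fell to 481 normalized counts in Δace1, against 1289 in QM6a. At least one neighbour within 2 places was called lower beside 16 of the 24, as at TRIREDRAFT_76897, where TRIREDRAFT_3394 fell to 189 normalized counts in Δace1, against 1464 in QM6a. Beside 13 of the 24 no neighbour within 2 places was called at least 4-fold higher.

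**Figure D4:**
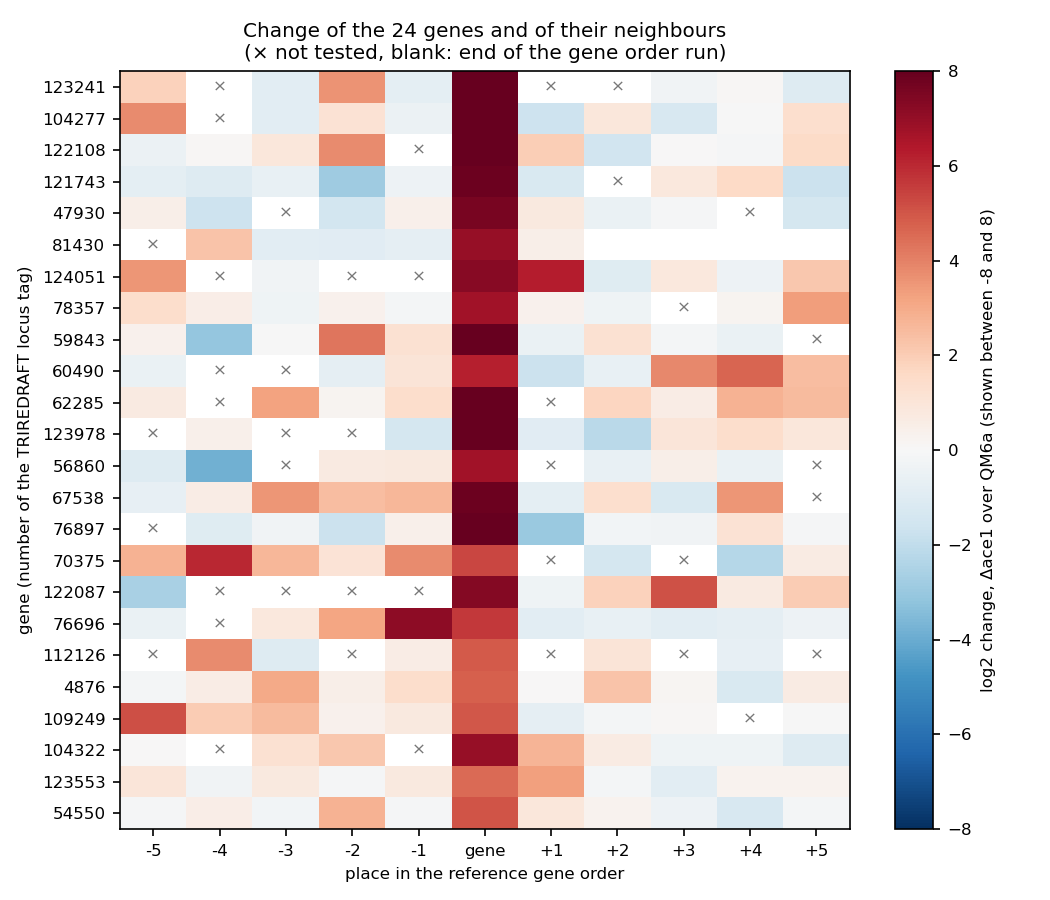
Log2 change in edgeR's fit (Δace1 over QM6a, as colour, with changes beyond the scale in its end colours) of each of the 24 genes in the middle column and of the genes up to 5 places before and after it in the reference gene order. The middle column is higher in Δace1 throughout, with log2 changes of at least 4.54, while the neighbours are mixed, with a run of higher genes before TRIREDRAFT_70375. A cross marks a gene with too few counts to be tested.

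Other genes of carbohydrate use were looked up by symbol in 6 lists of carbohydrate enzymes, carbon metabolism genes and regulators. Since none of the 24 has a symbol, none of them could be found in a list, and 38 of the 96 listed genes were not found at all, so whether any of the 24 is one of them is not known. Of the 58 found, 40 were tested. Of these 67.5% were called higher and 22.5% lower, beside 41.2% and 39.5% over all genes tested (edgeR, adjusted over all genes tested). That is 27 higher and 9 lower, against 31 and 8 with library totals and 32 and 7 on log2(TPM + 1), where 60.6% and 69.5% of all genes tested were called higher. The lower ones include ace1, whose change is fixed by the deletion. Of the 58, 23 were below 30 normalized counts in QM6a. The one with the highest Δace1 count among them was lad1, an L-arabinitol dehydrogenase gene, at 125 ± 11.9 normalized counts in Δace1 and 11.4 ± 2.66 in QM6a (SD, n = 3 each). Among the genes of cellulolytic enzymes, the cellobiohydrolase gene cel7a averaged 3.60 in Δace1 and 3.43 in QM6a, and the beta-glucosidase gene cel1a averaged 76.0 in Δace1 and 11.1 in QM6a.

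By list, the glyoxylate bypass, acetate and citrate genes had 3 higher and 4 lower of 7 tested, with a median log2 change of -1.44. The largest changes were those of acu3 (7.85) and acu9 (7.29), the citrate synthase gene cit1 (-2.50) and the isocitrate dehydrogenase gene idh2 (-1.72). Cellulases and beta-glucosidases had 4 higher and 1 lower of 5 tested, with a median of 1.90. All 4 higher ones were beta-glucosidase genes, namely cel1a, cel1b, cel3b and cel3c. The rest of the 14 found in that list, cel7a among them, had too few counts to be tested. Their means were at most 7.88 in Δace1 and 3.43 in QM6a. The lower one, cel5b (-0.24), was higher on log2(TPM + 1), at 0.53, and when library totals were used, at 0.27. The beta-glucosidase gene cel3b, which changed most, averaged 10928 ± 1008 normalized counts in Δace1 and 183 ± 29.0 in QM6a (SD, n = 3 each), so it was on in QM6a. Chitinases and N-acetylglucosaminidases had 11 higher and 0 lower of 13 tested, with a median of 1.35. The chitinase genes chi18-rel1 (3.88), chi18-13 (3.02), chi18-2 and chi18-16 (2.41 each) had the largest log2 changes in that list. The size of the last pair depended on single libraries. The change of chi18-2 was 3.20 without QM6a replicate 3 and 1.94 without QM6a replicate 1, and that of chi18-16 was 3.45 without QM6a replicate 1. In QM6a chi18-rel1 was near the floor, at 3.27, 7.17 and 5.84 normalized counts. Its change was 3.61 to 4.12 without single QM6a libraries.

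Sugar catabolism and uptake genes had 6 higher and 1 lower of 8 tested, with a median log2 change of 1.19. The largest were lad1 (3.45), the aldose reductase gene xyl1 (2.55), lxr1 (2.37), and the glycerol dehydrogenase gene gld1, which was lower (-1.95). The call of lxr1 was lost without any single Δace1 library and without QM6a replicate 2 (edgeR, adjusted p of 0.0599 to 0.0781), and with a replicate block (adjusted p = 0.0628). Its QM6a libraries were wide apart, at 13.1, 38.2 and 110.9 normalized counts. Regulators had 3 higher and 3 lower of 7 tested, with a median of -0.08, and the deleted gene ace1 counts among the lower. One of the 3 higher ones, hap5 (0.21, a CCAAT-binding subunit gene), lost its call with DESeq2 (adjusted p = 0.0537), without QM6a replicate 3 (edgeR, adjusted p = 0.0608) and without Δace1 replicate 1 (edgeR, adjusted p = 0.0587). Besides ace1 itself (-10.17), the activator gene xyr1 was higher (1.53), and the genes of the catabolite repressor cre1 (-1.04) and of the CCAAT-binding subunit hap2 (-0.80) were lower, although hap2 was not called on log2(TPM + 1), at -0.04 (limma, adjusted p = 0.725). None of the 7 regulators was near silent in QM6a. Both hemicellulase genes found by symbol, man5a and axe1, had too few counts to be tested, with means of at most 1.56 in Δace1 and 0 in QM6a. No listed marker of conidia was found by symbol.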

How the data were processed

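RNA of 3 Δace1 and 3 QM6a samples was sequenced. The submitters' processing notes name kallisto 0.43.1, DESeq2 1.14.1 and FastQC 0.11.5. Transcript set and build: not given in the sources used here. Per the file headers, each deposited sample table lists the estimated count, the TPM and the coding length of each transcript (99.1% of lengths are multiples of 3). The deposited series table gives a normalized signal per gene, a count divided by 1 factor per library. Multiplied back, 92.5% to 96.1% of its values were whole reads (within 0.05), and a count test on these reads called 6274 genes.

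Both tables were joined by their counts in all 6 libraries. Of 9113 genes 8526 had a single partner, among them all 24, and for 23 of these all 6 counts were within 1 of the partner's. The other, TRIREDRAFT_104277, differed by at most 2. The files do not pair the names, so TPM, rank and length rest on this match of counts. Symbols (234) and gene order came from RefSeq's table, assembly v2.0, which names no chromosomes, so no coordinates are printed. A drop in start position was taken as a break in the order.

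Rounded estimated counts were tested with edgeR 4.0.16 (TMM, filterByExpr, robust, two-sided) in R 4.3.3. DESeq2 1.42.0 and limma 3.58.1 were alternatives. The edgeR and DESeq2 procedures were run on simulated counts, with as many genes raised as lowered and the same dispersion for every gene. That setting cannot show how scaling affects the split of calls in these data. A standard error (SE) is the size of the log2 change over the square root of F. The spread behind the p-values is that between these samples, which may be technical. Replicate pairs differed by more than sampling noise.

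The genes and the lists were chosen with earlier results of these data known. Named genes are ace1, the 10 highest in Δace1, the 5 largest ratios, those without a QM6a read, the most and least variable, those nearest the limits, and up to 4 changed genes per list. Planned descriptions of proteins and promoters were not run, as no such sequences were used here. In the lists man1 was taken as man5a.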

Additional observations from a re-analysis of the deposited data

How the results depend on the processing

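All 24 genes were called higher under each of the 17 other settings. These included DESeq2, log2(TPM + 1) and leaving out each library. The rule, which chose the genes on the same libraries, fixes that count. Over all genes tested, 37.9% (without a filter on low counts) to 69.5% (log2(TPM + 1)) were called higher under those settings. The lowest single log2 change of the 24 was 4.28, without Δace1 replicate 1. How many genes met the rule depended on its limits and on scaling. It was 37 with library totals, 13 with the QM6a limit halved, 50 with it doubled, 66 with the Δace1 limit halved, and 13 with it doubled. Leaving out single libraries gave 22 to 25, gaining TRIREDRAFT_123274 without Δace1 replicate 2 and TRIREDRAFT_107947 without QM6a replicate 3. The median log2 change of the 24 genes, 7.14, was 7.64 with library totals, 7.77 on log2(TPM + 0.1), 6.66 on log2(TPM + 1), 7.06 on log2(normalized count + 1) and 7.30 with upper-quartile scaling, and 7.07 to 7.39 without single libraries. Genes called lower numbered 3072, but 1850 with library totals, 1320 on log2(TPM + 0.1) and 1326 on log2(TPM + 1). Genes called higher numbered 3202, but 5445 on log2(TPM + 0.1) and 5462 on log2(TPM + 1). The median coefficient of variation of the 24 genes among the Δace1 libraries was 9.74% on TPM and 5.90% to 9.75% without single libraries, the last of these alternatives being chosen after seeing the data. The count of neighbours and of listed genes called higher stayed within 1.5 times the reported count under each setting, at 34 to 58 neighbours and 25 to 32 listed genes.

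Same-numbered replicates of the strains did not deviate together, with correlations of -0.011, 0.032 and -0.047, and 1 of 6 libraries correlated best with its own number. With a replicate block 3175 genes were called higher and 3048 lower, 40 neighbours were called higher and the median log2 change of the 24 genes was 7.14. Depth limits the QM6a side of each ratio, since 8 of the 24 genes had a QM6a library at or under 3 reads.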
